A study of Mus musculus with 15 samples.

Results

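The 47 genes described here carry the mouse symbols of the proteasome and of the proteins that assemble, activate or inhibit it. They are the genes named Psma, Psmb, Psmc, Psmd, Psme, Psmf or Psmg with a number, apart from the immunoproteasome genes Psmb8, Psmb9 and Psmb10, that reached 10 or more in 5 or more of 15 ovary libraries. Of 24656 genes listed, 50 carry such a symbol, and 17569 of all genes passed the same filter on low values and were tested. By role the 47 genes comprised 8 of the 20S alpha ring, 7 of the 20S beta ring, 9 of the 19S base, 8 of the 19S lid, 7 assembly chaperones and 6 activators or inhibitors, with 1 gene that is no proteasome part (Psmc3ip) and 1 pseudogene (Psmb6-ps2). All mice were UM-HET3, a genetically heterogeneous stock in which littermates differ in genotype. The groups were untreated 6-month-old controls, untreated 12-month-old controls, and 12-month-old mice that received canagliflozin, an inhibitor of the renal glucose transporter SGLT2, over the preceding 6 months. Each group had 5 libraries of polyadenylated RNA from 1 whole ovary of each mouse, and the labels' extraction text names the 12-month groups alone. The sources used here do not give the dose or route of the drug or the stage of the reproductive cycle.

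The proteasome degrades proteins that carry ubiquitin chains. Its 20S core is a barrel of stacked alpha and beta rings whose beta subunits hold the proteolytic sites, and its 19S cap recognises, unfolds and feeds in substrates through a base with ATPases and a lid with a deubiquitinase. In the ovary it takes part in oocyte meiosis, in the turnover of cyclins and in the removal of damaged protein from long-lived oocytes.

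Values are reads divided by 1 size factor per library (normalized reads), differences between groups are log2 fold changes of value + 1, and a gene was called when its limma p, adjusted over all 17569 genes, was under 0.05. Depth ran from 8472205 to 13629491 reads, and canagliflozin replicate 2 was the shallowest. Mitochondrial transcripts took 4.84 to 9.37% of reads after canagliflozin, 3.70 to 4.46% in the 12-month controls and 2.72 to 3.19% in the 6-month controls. Marker genes of granulosa, luteal, theca and oocyte cells were above 0 in every library. Summed marker values differed between ages for some other cell types. The sum of 6 T and NK cell markers was 20.8 to 52.6 at 6 months and 56.9 to 155 in the 12-month controls, with Gzmb at 0 in some libraries, that of 5 B and plasma cell markers was 35.7 to 47.5 and 175 to 532, and that of 4 smooth muscle markers was 11951 to 17834 and 6355 to 12959. Only 3 of these T and NK markers and 3 of these B and plasma markers passed the filter. Among those that passed, 1 T and NK and 2 B and plasma markers were called higher with age. Of 6 macrophage markers 2 were called lower, and of 3 fat markers that passed the filter 2 were called higher. Of 4 smooth muscle and of 5 endothelium markers 1 each was called lower. Over all genes 5.4% were called higher and 7.01% lower. The summed values of smooth muscle, macrophage and fat markers overlapped between ages. Those of endothelium were 3920 to 4312 at 6 months and 3359 to 3892 in the 12-month controls. In RNA from whole ovaries, fewer cells of a type and less RNA per cell cannot be told apart, and the part of these cell types in the results below was not tested.

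Levels are given per kilobase of the longest GENCODE transcript of each gene (mean over 15 libraries). Which transcripts the ovary holds was not tested, and ranks between genes depend on the length taken. In the alpha ring levels ran from 1088 for Psma7 down to 14.6 for Psma8, the germ-cell counterpart of Psma7, and the next lowest was Psma3 at 149. The pseudogene Gm13835 holds 22.0% of the windows of Psma3 and had a mean of 865 normalized reads beside 424 for Psma3, so the rank of Psma3 is uncertain. The beta ring ran from 1998 for Psmb6 to 479.9 for Psmb7, both of which carry proteolytic sites. The length taken for Psmb7 was 2849 bases. Its mean of 1367 normalized reads was above the 740 of Psmb2, for which 859 bases were taken. In the 19S base the highest was Psmc3 at 1069 and the lowest Psmc2 at 353, both ATPases. The lid ran from 906 for Psmd7 to 334 for Psmd11. Chaperones ran from 430.1 for Psmg4, above several cap subunits, to 101 for Psmg3. Among activators and inhibitors, Psme2b had 1269 and Psmf1, the inhibitor PI31, had 121. Psme2 holds 68.7% of the windows of Psme2b and had 332, so the ranks of these copies are uncertain too. The gene just inside the filter was Psmb6-ps2, with 6.08 to 21.9 normalized reads per library, and the nearest outside it was Psmb5-ps, with 0 to 7.89.

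Between 6 and 12 months of age, in untreated mice, 4 of the 47 genes fell and none rose. The genes that fell were 3 of the 19S cap (Psmd3, Psmd2 and Psmd11) and Psme3, the subunit of a nuclear activator, and each was between 0.741-fold and 0.824-fold its 6-month level. The 4 genes are 8.51% of the 47, and 7.01% of all genes tested were called lower and 5.4% higher, so the share called was close to that over all genes. At an unadjusted p under 0.05, 7 of the 47 (14.9%) were lower and 5 (10.6%) higher, beside 14.7% and 12.7% of all genes. Groups did not overlap for 5 genes, all lower, which is 10.6% of them beside 8.07% of all genes, and 5.63% of all genes were higher without overlap. DESeq2 called 5 lower, with the lid gene Psmd8 added, and 2 higher, Psme2 and Psme2b, beside 9.23% and 7.59% of all genes. With length and GC correction 3 were lower and 1 higher, beside 5.26% and 4.86%, and with a replicate block 4 and 2, beside 6.72% and 5.38%. The median log2 fold change of the 47 genes was 0.04 and that of all genes 0.00. It turned negative with length and GC correction (-0.0141) and without 6-month control replicate 4 (-0.0083), and was 0.0087 without 12-month control replicate 2 and 0.0172 without 6-month control replicate 5.

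Psmd3 encodes Rpn3, a scaffold subunit of the lid. It had 2274, 2059, 2347, 1935 and 2119.7 normalized reads in the 6-month controls (replicates 1 to 5), 1565, 1589, 1619, 1574 and 1592 in the 12-month controls, and 1324, 1539, 1578, 1477 and 1859.5 after canagliflozin. Every 6-month library was above every 12-month library, and the 12-month controls lay close together. The mean was 2147 ± 166 (SD, n = 5) at 6 months and 1588 ± 20.7 at 12 months, a log2 fold change of -0.43 (SE 0.09, adjusted p = 0.00464). Correction of each library for its trends with transcript length and GC content gave -0.25 and ended the call (adjusted p = 0.0748).

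Psmd2 encodes Rpn1, which docks ubiquitin shuttles and a deubiquitinase on the base. Its values were 3268, 2755, 3074, 2915 and 3052 at 6 months, 2508, 2609.9, 2261, 2389 and 2408 in the 12-month controls and 2248, 2263, 2385, 2239 and 2685 after canagliflozin. The youngest group again lay wholly above the others. Between control ages the log2 fold change was -0.31 (SE 0.08, adjusted p = 0.0167), and length and GC correction likewise ended the call (-0.19, adjusted p = 0.105). A transcribed pseudogene, Gm5422, holds 25.2% of the 50-base windows of Psmd2, and with its reads added the fold change was -0.31 (adjusted p = 0.0178).

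Psmd11 encodes Rpn6, which clamps the lid to the core. It had 1158, 1027, 1077, 1126 and 1226 normalized reads at 6 months, 908, 1005, 873, 901 and 936 in the 12-month controls and 944, 849, 909.6, 983 and 979 after canagliflozin. The lowest 6-month library stood just above the highest 12-month control. The log2 fold change with age was -0.28 (SE 0.07, adjusted p = 0.0187). Without 6-month control replicate 5 it was -0.25 and no longer called (adjusted p = 0.053), and with length and GC correction it was -0.44 (adjusted p = 0.00413).

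Psme3 encodes PA28 gamma, the nuclear ring that activates the core without ATP or ubiquitin. Values were 1374, 1060.2, 1129.8, 1231 and 1332 at 6 months, 957, 992, 884, 1026 and 931 in the 12-month controls and 854, 943, 812, 872 and 1009.8 after canagliflozin. No 12-month library of either kind reached the lowest 6-month one. The fall with age was -0.35 on the log2 scale (SE 0.09, adjusted p = 0.0153), and it was called in all of 27 alternative settings, 15 of which each left out 1 library (highest adjusted p = 0.0451).

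**Figure D1:**
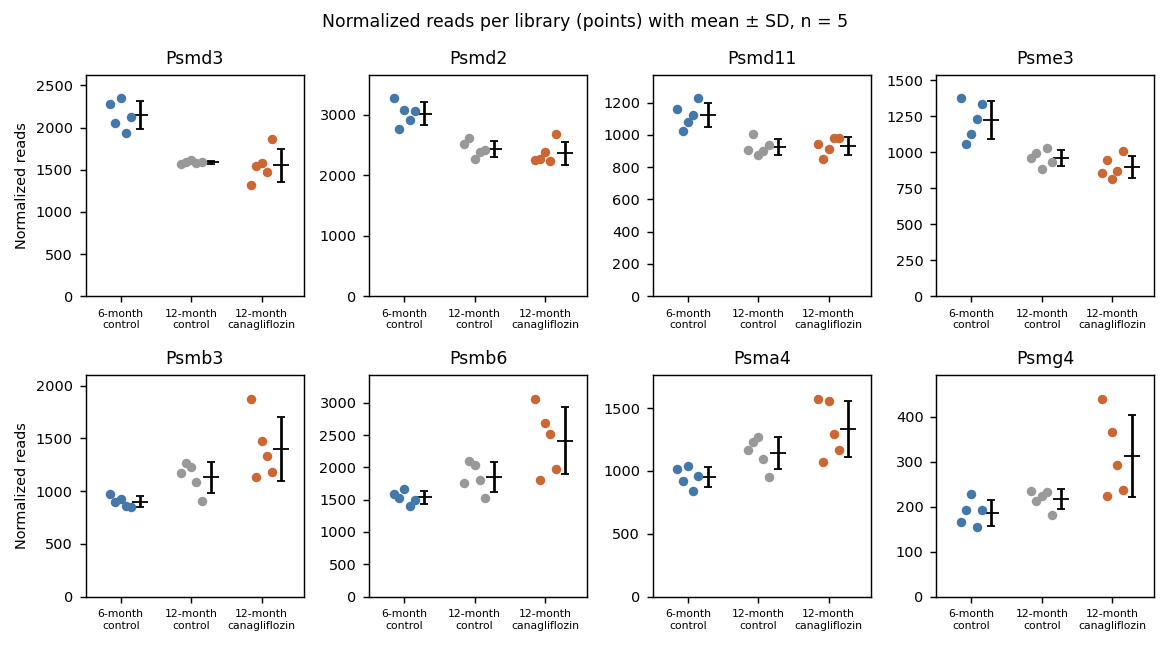
Normalized reads (vertical axes, from 0) of 8 proteasome genes in each library (points) by group, with mean ± SD beside them (n = 5). In the upper row, Psmd3, Psmd2, Psmd11 and Psme3, every 6-month point lies above the 12-month control points; in the lower row, Psmb3, Psmb6, Psma4 and Psmg4, the highest canagliflozin point lies above every control point.

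No other cap gene was called with age. Psmd8, a lid subunit, differed by -0.29 (SE 0.10, adjusted p = 0.0542), a difference as large as that of Psmd11 with a larger SE, with 1329.5 to 1735 at 6 months and 1080.2 to 1419.7 in the 12-month controls, which overlapped. In the 19S lid 6 of 8 fold changes were negative, from -0.43 to 0.06, and in the 19S base 4 of 9 were negative, from -0.31 to 0.15. Under length and GC correction Psmc6, an ATPase of the base, was also called lower (-0.42, adjusted p = 0.00273), whereas its uncorrected value was -0.08 (adjusted p = 0.534).

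None of the 20S genes was called between control ages. In the alpha ring 5 of 8 and in the beta ring 6 of 7 fold changes were positive, and the largest were Psmb3 at 0.32 (adjusted p = 0.112), Psma8 at 0.28 (adjusted p = 0.557), Psma4 at 0.26 (adjusted p = 0.155) and Psmb6 at 0.26 (adjusted p = 0.218). Psmb3 is a beta subunit without a proteolytic site, and Psma4 belongs to the alpha ring.

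Core and cap were compared within each library, as the mean log2 value of 14 core genes (all but Psma8) minus that of 17 cap genes. This difference was -0.373 to -0.236 at 6 months, -0.183 to 0.00523 in the 12-month controls and -0.0822 to 0.0801 after canagliflozin. Every 12-month control lay above every 6-month control, and the canagliflozin libraries overlapped the 12-month controls. The group means were -0.306 ± 0.0589, -0.118 ± 0.0745 and -0.00431 ± 0.0605 (SD, n = 5). After length and GC correction the 6-month range of -0.317 to -0.217 still lay below the 12-month control range of -0.175 to -0.0423. The same difference was also taken with the reads of copies at other loci added to Psma3, Psma4, Psma5, Psmb5 and Psmd2. Of these only Psmd2 is a cap gene. With the copies it was -0.0861 to 0.0182 at 6 months, 0.0842 to 0.258 in the 12-month controls and 0.183 to 0.325 after canagliflozin. These are descriptions of the chosen genes and carry no test. All genes were ordered by transcript length into 5 bins of equal size, with median lengths of 885, 2006, 3014, 4172 and 6479.5 bases. From shortest to longest, their median log2 fold changes with age were 0.08, -0.01, -0.06, -0.06 and 0.07. With canagliflozin against 12-month controls they were 0.12, 0.03, -0.01, -0.03 and -0.07. Median transcript lengths were 1377 bases in the alpha ring, 1183 in the beta ring, 2120 in the base and 1969 in the lid. The part of transcript length in the difference that remains after correction was not tested.

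**Figure D2:**
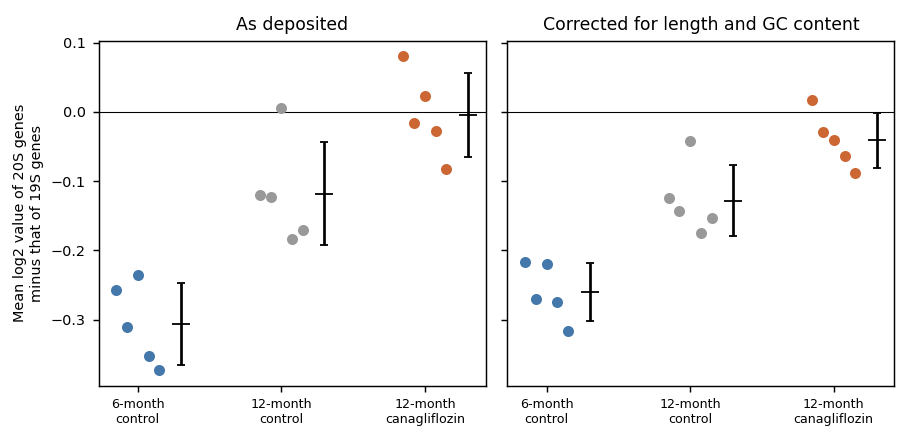
Mean log2 value of 14 core (20S) genes minus that of 17 cap (19S) genes (vertical axis) in each library (points), with mean ± SD (n = 5), as deposited and after correction for transcript length and GC content. In both panels all 6-month controls lie below all 12-month controls.

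Canagliflozin against untreated mice of the same age asked what the drug changed in 12-month ovaries. No proteasome gene was called by limma, and edgeR and DESeq2 on recovered reads also called none. Over all genes limma called 0.00569% higher and 0% lower, edgeR 0.0455% and 0.00569%, and DESeq2 0.25% and 0.0854%. At an unadjusted p under 0.05, 4 genes were higher (8.51%) and 0 lower, beside 4.77% and 4.43% of all genes. These 4 were Psmg4, Psmb6, Psmb3 and the pseudogene Psmb6-ps2. Of the 47 fold changes 34 were positive and 13 negative, with a median of 0.05, beside 0.00 for all genes. That median was 0.0228 without canagliflozin replicate 3, 0.0302 without replicate 1, 0.0954 without replicate 2, 0.0355 without 12-month control replicate 5 and 0.0330 with length and GC correction. All 7 beta ring genes and 7 of 8 alpha ring genes were positive, at medians of 0.15 and 0.12. The base had 6 positive and 3 negative, at a median of 0.05, and the lid 4 and 4, at -0.01. With length and GC correction the medians were 0.08 (beta), 0.09 (alpha), 0.09 (base) and -0.03 (lid). No proteasome gene had groups that did not overlap, beside 0.586% of all genes higher and 0.467% lower.

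Psmg4 encodes a chaperone that, with Psmg3, helps to build the alpha ring. Its values were 441, 223, 367, 293 and 238 after canagliflozin, 235, 213, 223, 233 and 181 in the 12-month controls and 165, 192, 228, 155 and 192 at 6 months. Canagliflozin replicates 1, 3 and 4 stood clear of the controls and the others lay among or close to them. The log2 fold change against 12-month controls was 0.48 (SE 0.17, adjusted p = 0.462).

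Psmb6 encodes the beta subunit with the caspase-like site. It had 3064, 1812, 2682, 2523 and 1971 normalized reads after canagliflozin, 1760.5, 2102, 2038, 1797 and 1528 in the 12-month controls and 1580.2, 1531, 1664, 1406 and 1498 at 6 months. Canagliflozin replicates 1, 3 and 4 were above all controls, and replicates 2 and 5 lay within the range of the 12-month controls. Against those controls the log2 fold change was 0.37 (SE 0.13, adjusted p = 0.464).

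Psmb3 showed a like order. Its libraries gave 1876, 1131, 1473, 1334 and 1177 after canagliflozin, 1171, 1261, 1229, 1082 and 903 in the 12-month controls and 975, 892, 921, 861 and 852 at 6 months. The same 3 canagliflozin replicates exceeded every control. The drug comparison gave 0.29 (SE 0.13, adjusted p = 0.514). Mitochondrial transcripts took more of the reads in the canagliflozin libraries than in these controls, and the part of that difference in the proteasome values was not tested. Marker genes of several cell types also leaned 1 way with the drug, although none was called. Of surface epithelium markers 4 of 4 were higher (median log2 fold change 0.84, summed values 559 to 1479.9 beside 304 to 812 in the 12-month controls), of endothelium 5 of 5 (0.32, 3238 to 4915 beside 3359 to 3892) and of red cells 5 of 5 (1.19, 1457 to 7442 beside 168 to 18087). Markers of oocytes (8 of 8, median -0.32), macrophages (6 of 6, -0.35), smooth muscle (4 of 4, -0.28) and theca (3 of 3, -0.71) were lower. The summed values of these types overlapped between the groups, and their part in the proteasome values was not tested.

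**Figure D3:**
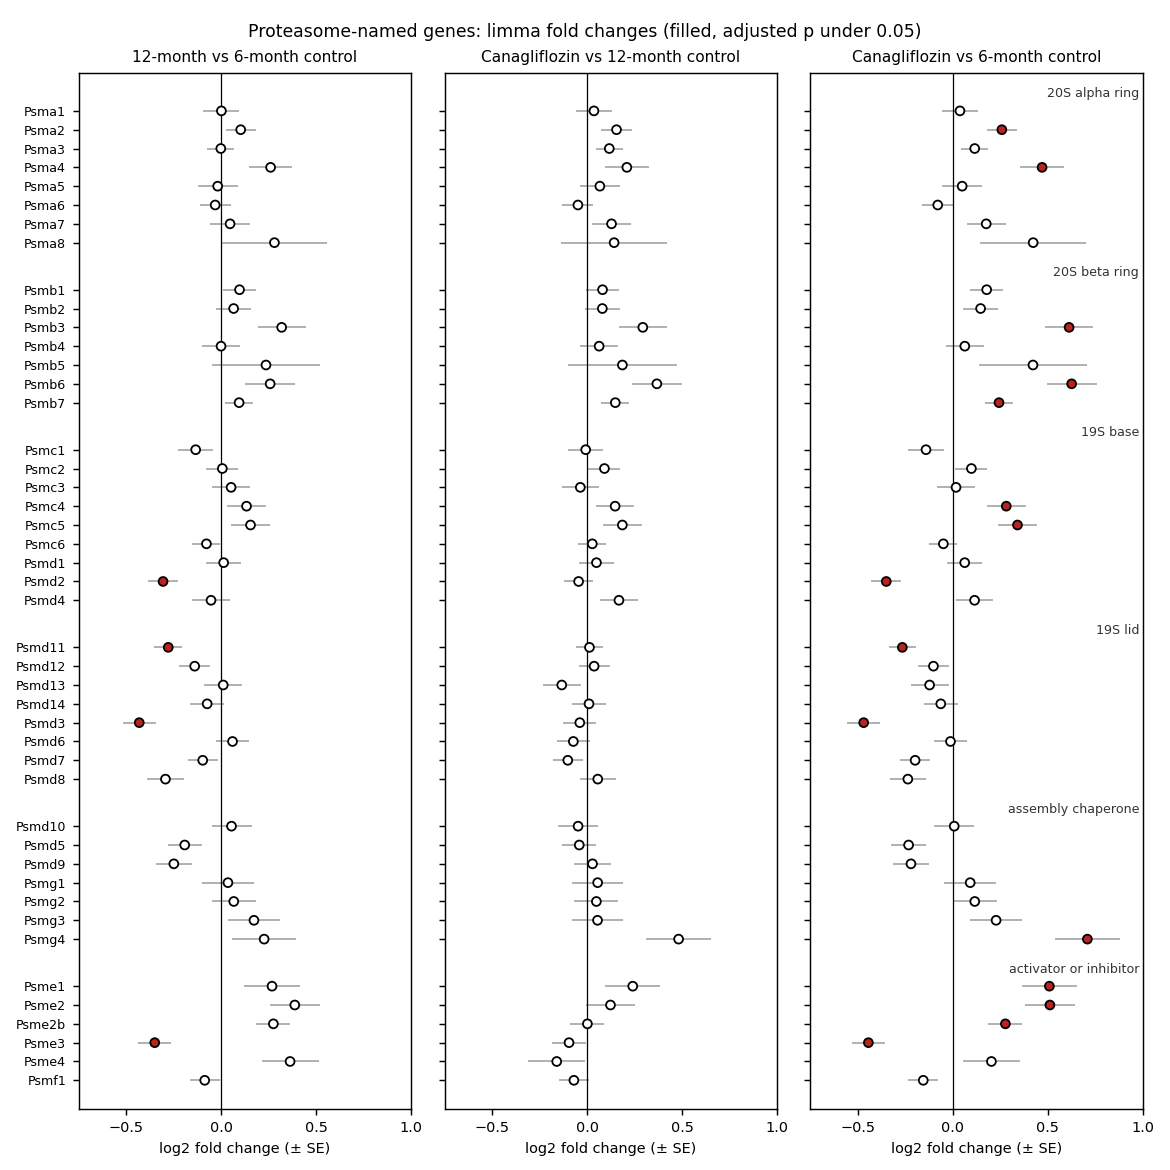
Log2 fold changes (horizontal axes, points) with limma SE (bars) for the genes with a role in the proteasome, grouped by role, in 3 comparisons. Filled points have an adjusted p under 0.05 over all 17569 genes; 4 are filled between control ages, 0 between canagliflozin and 12-month controls, and 15 between canagliflozin and 6-month controls.

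Canagliflozin-treated 12-month ovaries were also set against 6-month controls, a comparison that shares its samples with those above and mixes age with drug. Of the 47 genes 11 were higher and 4 lower, which is 23.4% and 8.51%, beside 13.5% and 14.9% of all genes. The 4 lower genes were those that fell between control ages: Psmd3 at -0.47 (adjusted p = 0.00107), Psme3 at -0.45 (adjusted p = 0.0016), Psmd2 at -0.35 (adjusted p = 0.00361) and Psmd11 at -0.27 (adjusted p = 0.0125). Against the 12-month controls the same 4 genes differed by -0.09 to 0.01 with canagliflozin. The 11 higher genes comprised 5 of the core (Psmb6, Psmb3, Psmb7, Psma4 and Psma2), the cap ATPases Psmc5 and Psmc4, the chaperone Psmg4 and the activator genes Psme1, Psme2 and Psme2b. No lid gene was higher, and all 8 lid fold changes were negative.

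The largest rises were Psmg4 at 0.71 (SE 0.17, adjusted p = 0.00595), Psmb6 at 0.62 (SE 0.13, adjusted p = 0.00255) and Psmb3 at 0.61 (SE 0.13, adjusted p = 0.00221). Psma4 had 1576, 1074, 1555, 1297 and 1165 after canagliflozin, 1170.5, 1233, 1273, 1098 and 953 in the 12-month controls and 1012, 922, 1043, 838 and 957 at 6 months. Its lowest treated library exceeded the highest 6-month one, and the 12-month controls overlapped both groups. It rose by 0.47 against 6 months (SE 0.11, adjusted p = 0.00674), and length and GC correction gave 0.26 and ended the call (adjusted p = 0.0504). Psma2 rose by 0.26 (adjusted p = 0.0237), a call lost in 5 of 27 alternative settings, which were that correction (0.09, adjusted p = 0.447) and leaving out canagliflozin replicate 1 or 3 or 6-month replicate 2 or 4. Groups did not overlap for Psmb6, Psmb3, Psma4 and Psma2 among the higher genes, which is 8.51% of the 47 beside 8.05% of all genes, and for 6 lower genes, which is 12.8% beside 10.4%. Calls of Psmc4 (0.28, adjusted p = 0.049) and Psme2b (0.28, adjusted p = 0.0306) were lost in 16 and 9 of 27 alternative settings. With length and GC correction 15 genes were again called, but 7 of them higher and 8 lower, beside 14% and 13.8% of all genes; the added lower genes were Psma6, Psmc6, Psmd14 and Psmd7, and the higher calls lost were Psma4, Psma2, Psmb7 and Psme2b. A replicate block gave 14 calls, where 13.5% of all genes were higher and 14.5% lower.

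The beta subunits with proteolytic sites are Psmb5 (chymotrypsin-like), Psmb6 (caspase-like) and Psmb7 (trypsin-like). Psmb7 had 1494, 1360.2, 1674, 1494 and 1448 after canagliflozin, 1332, 1394, 1376, 1324 and 1299.9 in the 12-month controls and 1378, 1235, 1324, 1143 and 1232 at 6 months. Its libraries varied little, and only 1 of the 6-month libraries reached into the canagliflozin range. Against 6 months it rose by 0.24 with canagliflozin (SE 0.07, adjusted p = 0.022), a call lost without canagliflozin replicate 3, without 6-month replicate 4, in a fit of these groups alone and with length and GC correction.

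Psmb5 varied more between libraries of a group than any other of the 47 genes, with a pooled within-group SD of 0.50 on the log2 scale beside a median of 0.14 over the 47 and 0.27 over all genes. It had 1020.0, 446, 1071, 719.8 and 430.3 normalized reads at 6 months, 1047, 614, 1149, 481 and 962 in the 12-month controls and 1081, 743, 845, 880.3 and 1092 after canagliflozin. Low libraries occurred in both control groups. No comparison of Psmb5 was called, and the largest fold change, canagliflozin against 6 months, was 0.42 (SE 0.29, adjusted p = 0.286).

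Gm3375, a processed pseudogene listed as a gene of its own, holds 49.4% of the 50-base windows of the Psmb5 transcript. The stretch below, from exon 2 of Psmb5 at chr14:54616658-54616757 (minus strand) and from Gm3375 at chr7:3181356-3181455 (plus strand, GRCm38, read from GENCODE transcripts), shows how little separates their reads. Capitals mark the 2 positions of 100 at which the copies differ.
Psmb5: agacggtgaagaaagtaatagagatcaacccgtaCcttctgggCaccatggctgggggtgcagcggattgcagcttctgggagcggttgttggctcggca
Gm3375: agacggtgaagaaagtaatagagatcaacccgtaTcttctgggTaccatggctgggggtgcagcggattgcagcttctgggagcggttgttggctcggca
Gm3375 had 761, 1002, 789, 618 and 1104 normalized reads at 6 months, 794, 1325, 836, 1118 and 692 in the 12-month controls and 1025, 1353, 1593, 1491 and 859.7 after canagliflozin. It was high in most libraries in which Psmb5 was low, among them replicates 2 and 5 at 6 months and replicates 2 and 4 of the 12-month controls.

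The sum of Psmb5 and Gm3375 was 1592 ± 222 at 6 months, 1804 ± 171 in the 12-month controls and 2192 ± 204 after canagliflozin (SD, n = 5). Its within-group SD was 0.16 on the log2 scale, near that of the other proteasome genes. The sum was higher after canagliflozin than at 6 months by 0.47 (SE 0.10, adjusted p = 0.0037), and against the 12-month controls it differed by 0.28 (adjusted p = 0.472). How reads that match more than 1 place were assigned is not given in the sources used here, so the value of Psmb5 alone is uncertain.

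**Figure D4:**
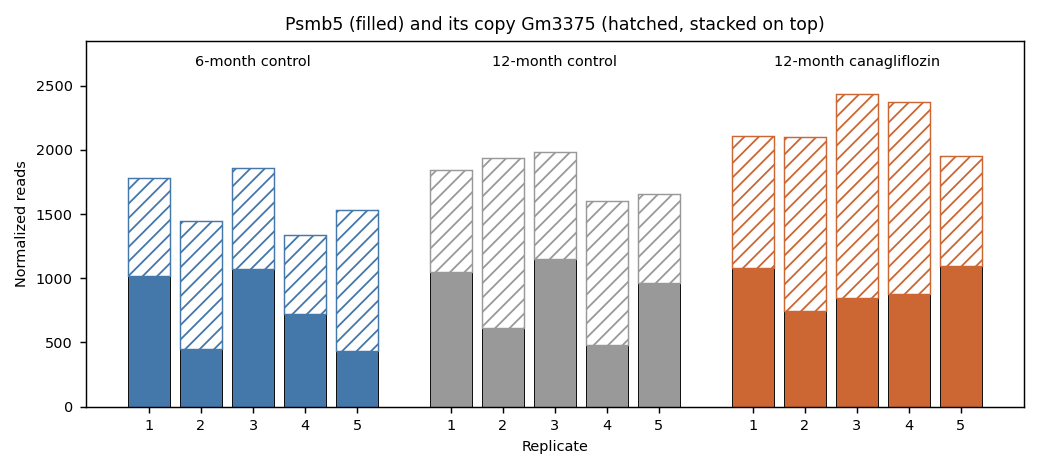
Normalized reads of Psmb5 (filled bars) and of its processed pseudogene Gm3375 (hatched, stacked on top) in each library (horizontal axis, replicates by group). Filled bars range from 430.3 to 1149, and the stacked total from 1338 to 2438.

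Activators open the gate of the core in place of the cap. Psme1 and Psme2 encode the alpha and beta subunits of PA28, which interferon induces and which favours peptides for antigen presentation. Psme1 had 1059.8, 1134, 1451, 1032 and 979 at 6 months, 1194, 1387, 1632, 1130.1 and 1456 in the 12-month controls and 1488, 1682, 1518, 2167 and 1244 after canagliflozin. The groups overlapped, with most canagliflozin libraries at the upper end. Neither step was called alone (0.27 with age, adjusted p = 0.25; 0.24 with the drug, adjusted p = 0.618), and canagliflozin against 6 months was 0.51 higher (SE 0.15, adjusted p = 0.0163).

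Psme2 had 253, 249.8, 311, 279 and 195 at 6 months, 358, 309, 397, 307 and 307 in the 12-month controls and 405, 320.3, 368, 426 and 310.3 after canagliflozin. Only the highest 6-month library reached into the range of either 12-month group. With age it differed by 0.39 (SE 0.13, adjusted p = 0.064), a difference called with length and GC correction (adjusted p = 0.0315), with DESeq2 (0.0386) and without 6-month replicate 3 (0.041). The replicate block also called it (adjusted p = 0.0305), although replicate numbers do not tie mice across groups. Against 6 months canagliflozin was higher by 0.51 (adjusted p = 0.00884). Psme2b, a copy on another chromosome, holds 59.3% of the windows of Psme2, and 68.7% of its own are in Psme2. Its values were 869 to 1132 at 6 months, 1061 to 1251 in the 12-month controls and 976 to 1209 after canagliflozin. Summed, the 2 copies gave 1191 ± 147, 1461 ± 109 and 1494 ± 146 in that order, a rise with age of 0.30 (adjusted p = 0.0486) and a drug difference of 0.03 (adjusted p = 0.931).

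Psme4 encodes PA200, a nuclear activator linked to histone turnover and DNA repair. It had 983, 884, 818, 1080.1 and 964 at 6 months, 1505, 929, 1044, 1475 and 1208 in the 12-month controls and 1042, 1156, 909.6, 927 and 1472 after canagliflozin. A pair of 12-month controls and 1 canagliflozin library stood above the rest. It differed by 0.36 with age (adjusted p = 0.128) and by -0.16 with the drug (adjusted p = 0.74). Psmf1 was not called in any comparison (-0.09 with age, -0.07 with the drug, -0.16 for canagliflozin against 6 months).

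The mixture of activators was compared as a share, which does not depend on a library's scaling. Psme2b was left out of this share. Psme1 and Psme2 together made up 39.0 ± 5.56% of the reads of Psme1 to Psme4 at 6 months, 43.7 ± 6.06% in the 12-month controls and 49.7 ± 7.42% after canagliflozin (SD, n = 5). The groups overlapped at every step. In an exact two-sided permutation test, whose smallest p with 5 against 5 is 0.00794, canagliflozin against 6 months gave p = 0.0397 (0.238 adjusted over 12 such tests).

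Interferon also induces Psmb8, Psmb9 and Psmb10, which replace Psmb5, Psmb6 and Psmb7 in the immunoproteasome. None of these 3 was called in any comparison. Psmb8 had 373 ± 89.6 normalized reads at 6 months, 453 ± 124 in the 12-month controls and 430.4 ± 114 after canagliflozin, Psmb9 had 164 ± 23.1, 185 ± 63.7 and 180.4 ± 53.4, and Psmb10 had 472 ± 100.04, 481 ± 45.4 and 509 ± 94.7 (SD, n = 5). The share of Psmb9 in Psmb9 plus Psmb6 was 9.64 ± 1.05% at 6 months, 9.36 ± 3.91% in the 12-month controls and 6.94 ± 1.48% after canagliflozin. The last of these differed from 6 months at an exact permutation p of 0.0159 (0.19 adjusted), and that share falls where Psmb6 is higher. Psmb8 took 34.9 ± 6.05, 35.9 ± 11.6 and 31.7 ± 7.81% of Psmb8 plus Psmb5, and Psmb10 took 27.1 ± 3.96, 26.3 ± 2.06 and 25.3 ± 3.38% of Psmb10 plus Psmb7, with no adjusted p under 0.05. The share of Psmb8 is uncertain, because the value of Psmb5 without its copy Gm3375 is. It was highest, at 52.9%, in 12-month control replicate 4, where Psmb5 had 481 and Gm3375 1118 normalized reads.

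The other assembly chaperones changed little. Psmg1 to Psmg3 differed by 0.04 to 0.17 with age and by 0.05 to 0.06 with the drug. The base chaperones Psmd5 and Psmd9 were at -0.19 (adjusted p = 0.181) and -0.25 (adjusted p = 0.1) with age, and the third, Psmd10 or gankyrin, was at 0.05. Psmd5 had 534 to 665 at 6 months and 485 to 532 in the 12-month controls, ranges that did not overlap.

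Psmc3ip shares the symbol's stem but encodes HOP2, a meiotic recombination factor. Its values were 66.4, 61.8, 44.8, 44.1 and 62.5 at 6 months, 55.4, 62.1, 63.3, 45.1 and 66.0 in the 12-month controls and 73.0, 47.7, 74.98, 66.4 and 39.0 after canagliflozin. All groups covered much the same range (0.07 with age, 0.01 with the drug). Psmc3ip overlaps Mlx in the genome, with 27.1% of its windows shared, and whether counting used strand is not given in the sources used here.

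Psma8 replaces Psma7 in germ-cell proteasomes. It had 30.3, 15.4, 24.4, 26.3 and 19.8 at 6 months, 23.9, 44.6, 18.4, 19.5 and 42.5 in the 12-month controls and 20.7, 34.3, 34.5, 32.7 and 34.0 after canagliflozin. A pair of 12-month controls was high and canagliflozin replicate 1 was low. It was not called (0.28 with age, 0.14 with the drug). The pseudogene Psmb6-ps2 had 7.93 to 19.99 at 6 months, 6.08 to 16.4 in the 12-month controls and 14.9 to 21.9 after canagliflozin, and differed by 0.66 with the drug (SE 0.29, adjusted p = 0.518). Psmb11, of the thymus proteasome, did not pass the filter, with 0 to 4.96, nor did Psmb7-ps2, with 0 to 4.77.

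A pair of short motifs known from proteasome promoters were searched in RefSeq windows from 250 bases before to 50 after each gene's start (GRCm38.p6), on both strands. These were TGACNNNGC, the core of the antioxidant response element that Nfe2l1 and Nfe2l2 bind, and CCAAT, bound by NF-Y. Of the 47 genes 38 matched a window, with 41 windows in all. The 9 genes without a window were Psma8, Psmb1, Psmb2, Psmb6-ps2, Psmb7, Psmc3, Psmd3, Psmd7 and Psmg2. TGACNNNGC occurred in 6 windows (14.6%), beside 12.4% of all 32851 windows, and CCAAT in 13 (31.7%), beside 37.4%. Below are the 100 bases before the start of Psmb5 (chr14:54617996-54618095, minus strand), Psmb6 (chr11:70525257-70525356), Psmb3 (chr11:97703334-97703433) and Psme3 (chr11:101316113-101316212, the last 3 on the plus strand), shown as examples that hold a motif and were chosen after their values were seen. Psma2, among others, also holds CCAAT. Capitals mark a motif, and in Psme3 they are CCAAT read on the opposite strand.
Psmb5: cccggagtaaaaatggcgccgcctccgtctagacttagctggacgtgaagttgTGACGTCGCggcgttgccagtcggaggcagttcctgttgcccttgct
Psmb6: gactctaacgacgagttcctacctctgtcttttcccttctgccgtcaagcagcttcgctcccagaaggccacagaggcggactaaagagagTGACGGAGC
Psmb3: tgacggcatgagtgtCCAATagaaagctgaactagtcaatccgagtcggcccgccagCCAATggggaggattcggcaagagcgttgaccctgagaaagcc
Psme3: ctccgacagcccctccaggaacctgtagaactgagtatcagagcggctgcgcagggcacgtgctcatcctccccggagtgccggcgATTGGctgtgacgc
The marked motif is TGACNNNGC in Psmb6 and CCAAT in Psmb3. The part of these motifs in the values was not tested. The other windows with TGACNNNGC belong to Psmc6, Psmd12, Psmd9 and Psme4, none of which was called in the uncorrected limma fit with all 15 libraries. With length and GC correction Psmc6 was called lower with age (-0.42, adjusted p = 0.00273). It was also called lower there for canagliflozin against 6 months (-0.42, adjusted p = 0.000693). Psmd9 was called lower without 12-month control replicate 3 (-0.33 with age, adjusted p = 0.0227).

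The genes that supply, deliver or unfold proteasome substrates were taken from 7 lists. With canagliflozin against 12-month controls none of their genes was called. The smallest p values were those of Pomp, which matures the beta ring (0.39, adjusted p = 0.372), Elob, an elongin of cullin ligases (0.44, adjusted p = 0.468), and Akirin2, which brings proteasomes into the nucleus (0.23, adjusted p = 0.473). Pomp had 1444, 1277, 1763, 1403 and 1238 after canagliflozin and 1148, 1017, 1275, 1024 and 972 in the 12-month controls. Only the highest control library fell within the treated range. Others with small p were Cand1, an exchange factor of the same ligases (-0.27, adjusted p = 0.489), the ubiquitin gene Ubb (0.19, adjusted p = 0.56), the p97 cofactors Nploc4 (-0.21, adjusted p = 0.546) and Nsfl1c (0.16, adjusted p = 0.593), and the transcription factors Mafg (0.17, adjusted p = 0.603) and Nfe2l2 (-0.17, adjusted p = 0.699). None of these passed the threshold.

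With age, 9 genes of these lists were called lower and 4 higher, and calls over all genes also leaned to lower, at 7.01% beside 5.4%. Among 15 proteasome-associated genes 3 were lower and 1 higher, among 14 of ubiquitin supply 1 and 1, among 12 of the p97 unfoldase 3 and 0, and among 16 of the cullin ligases 2 and 2. Uba1, the main ubiquitin-activating enzyme, had 6748, 6193, 6601, 6714 and 6485 at 6 months and 4448, 4420.3, 3884, 4223 and 4985 in the 12-month controls. The age groups lay far apart. It fell by 0.58 on the log2 scale (SE 0.09, adjusted p = 0.0012), while Uba6, the second such enzyme, rose by 0.47 (adjusted p = 0.0142), a call lost with length and GC correction (0.16, adjusted p = 0.301).

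The ubiquitin shuttles Ubqln2 and Rad23b, which bring substrates to the cap, fell by 0.51 (adjusted p = 0.00564) and 0.39 (adjusted p = 0.0118) with age. Faf1 and Nploc4, cofactors of p97, fell by 0.53 (adjusted p = 0.00168) and 0.46 (adjusted p = 0.00784), and Nploc4 lost its call with length and GC correction (adjusted p = 0.0674). Cul4a and its adaptor Ddb1 were lower, at -0.38 (adjusted p = 0.00981) and -0.27 (adjusted p = 0.0305). The call of Ddb1 was lost in 8 of 27 alternative settings. Nedd8 and Rbx1, also of the cullin ligase list, were called higher. Over the 27 settings their log2 fold changes were 0.36 to 0.47 and 0.17 to 0.33, and the calls were lost in 9 and 10. Uba1, Ubqln2, Rad23b, Faf1 and Cul4a were called in all 27.

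**Figure D5:**
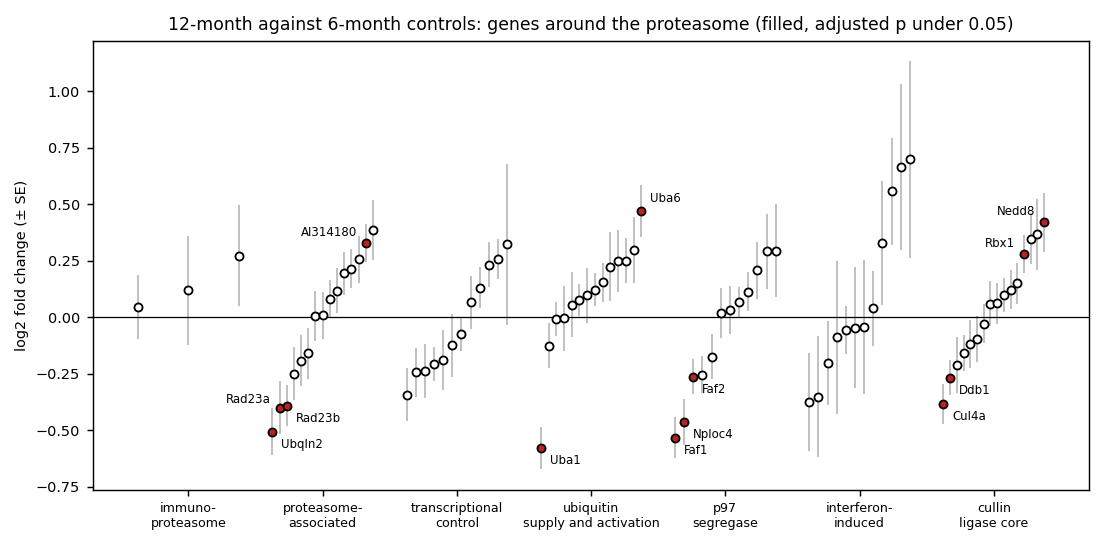
Log2 fold change (vertical axis, points, with limma SE as bars) between 12-month and 6-month controls for the genes of 7 related lists, ordered within each list by fold change. Filled points have an adjusted p under 0.05: 9 genes are below 0, from Uba1 at -0.58 to Faf2 at -0.26, and 4 are above, from Rbx1 at 0.28 to Uba6 at 0.47.

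Transcription factors and enzymes that set proteasome gene expression, 12 in all, gave no call with age or drug. The nearest were Ngly1 (-0.34, adjusted p = 0.0679) and Ddi2 (0.26, adjusted p = 0.0704), which process Nfe2l1 into its active form, both with age. Against 6 months canagliflozin was called lower for Nfe2l1 (-0.38, adjusted p = 0.0177) and Ngly1 (-0.38, adjusted p = 0.0231) and higher for Mafg (0.40, adjusted p = 0.00701). Nfe2l1 itself had 7080.1 ± 727 at 6 months, 5988 ± 768 in the 12-month controls and 5451 ± 528 after canagliflozin, and differed by -0.24 with age (adjusted p = 0.158) and -0.13 with the drug (adjusted p = 0.707). Of 12 interferon-induced genes none was called with age or drug. B2m, the light chain of class I molecules, differed by 0.56 with age (adjusted p = 0.138) and Ifit1 by 0.67 (adjusted p = 0.257). With the drug Gbp2 differed by -0.44 (adjusted p = 0.511) and Ifit3 by -0.57 (adjusted p = 0.546), and 11 of the 12 had a negative fold change with the drug, at a median of -0.33.

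In several libraries most core and cap genes lay on the same side of their group mean. Of 31 core and cap subunits, 28 were above their group mean in 6-month replicates 1 and 3 and 4 in replicates 2 and 4. In the canagliflozin group 28 were above it in replicate 3 and 23 in replicate 1, and 0 in replicate 2, the shallowest library. Of the 12-month controls replicate 5 had 4 above it and replicate 2 had 23. Other libraries were less one-sided, such as 12-month control replicate 4 with 14 and canagliflozin replicate 5 with 19. The share of all genes above their group mean was not taken, and the part of a shift of the whole library was not tested. Without canagliflozin replicate 2 the counts of proteasome genes called were still 0 against 12-month controls and 15 against 6-month controls.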

How the data were processed

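Polyadenylated RNA from 15 mouse ovaries (5 per group, 1 library a mouse, so that n counts mice) was sequenced from directional libraries on an Illumina instrument, per the labels' protocols. Per the submitters' processing notes, Partek 11.0 was used with the mouse build mm39. The sources used here do not give the aligner, the annotation, the use of strand or the handling of reads with several matches. The authors deposited 1 table of signal values, which are read counts divided by 1 size factor per library: whole reads were recovered from the steps between low values, within 0.1 read. The labels state a far lower depth than these totals show.

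Genes with at least 10 in at least 5 of 15 libraries were fitted with limma 3.58.1 (trend and robust variance, R 4.3.3) on log2(value + 1), all 15 libraries in 1 fit, with Benjamini-Hochberg adjustment over all genes tested. Shares were compared with exact two-sided permutation tests over samples, adjusted over 12 tests. Alternatives were pseudocounts of 0.5 and 5, other filters and scalings, edgeR 4.0.16 and DESeq2 1.42.0 on recovered reads, the compared groups alone, a replicate block, leaving out each library, and length and GC correction; summing copies of a gene was added after seeing the data. Only the limma fit was run on simulated reads, with the same spread for every gene. This was done for the control ages and for canagliflozin against 12-month controls, and the alternatives were not simulated. Replicate numbers do not tie mice across groups in the labels.

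The genes and lists were chosen with earlier results of these data known. Values in every library are given for catalytic subunits, activators, up to 6 genes called with the smallest p in a comparison (or the 3 with the smallest p where fewer than 3 were called), and genes of the pattern that are no general subunit; of each related list, the genes with the 2 smallest p are named, except 1 gene that is not reported here. Other genes named were chosen after their values were seen.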

Additional observations from a re-analysis of the deposited data

Results flagged for a closer look

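In 66 groups of 5 libraries, 2 held a library whose gap to its nearest neighbour exceeded 0.71 of the group's range, and chance gives about 1 in 20. Psma8 had 20.69 normalized reads in canagliflozin replicate 1, while the other libraries of that group had 32.71 to 34.53. The share of Psmb10 in Psmb10 plus Psmb7 was 29.92% in 12-month control replicate 5, beside 24.76 to 25.87% in the rest of that group. The cause of neither was tested.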

How the results depend on the processing

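None of the proteasome genes described here was called between canagliflozin and 12-month controls under any of 27 alternatives. Between control ages 4 proteasome genes were called, 4 to 6 when 1 library was left out, 6 with a replicate block and 7 with DESeq2. Against 6 months the canagliflozin count of 15 was 11 to 15 with 1 library left out and 14 with the replicate block. Over all genes 1809 to 2561 were called higher and 2121 to 2759 lower with 1 library left out, and 13.5% and 14.5% with the block. Same-numbered libraries correlated at -0.30 to 0.25, with 2 of 15 best with their own number, so the numbers were not taken as pairs.

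Some values near 0 changed sign, and the cause was not tested. The median over the 47 genes with age was -0.0141 with length and GC correction and ran from -0.0083 to 0.0601 with 1 library left out. Length and GC correction gave -0.0211 for Psmc3ip with the drug, -0.0042 for Psmc3ip after canagliflozin against 6 months and -0.0496 for Psmb7 with age. With 1 library left out, log2 fold changes with the drug ran from -0.0005 to 0.3132 for Psmb5, -0.1048 to 0.0176 for Psmd3, -0.0078 to 0.046 for Psmd11, -0.0762 to 0.1549 for Psmc3ip and -0.0002 to 0.3091 for Psma8. Those with age ran from -0.0083 to 0.1583 for Psmc3ip and -0.2745 to 0.0501 for Psmb6-ps2, and that of Psmc3ip for canagliflozin against 6 months from -0.0059 to 0.2252.

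Differences of shares, in percentage points, ran likewise. For Psmb8 they were -7.2874 to 0.0375 with the drug, -3.2559 to 4.069 with age and -5.3295 to 0.1139 for canagliflozin against 6 months. For Psmb10 they were -2.1804 to 0.0832 with the drug and -1.7334 to 0.6061 with age, and for Psmb9 -1.6844 to 0.6749 with age.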
